A study of Homo sapiens with 9 samples.

Results

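The genes described here are the 240 protein-coding genes of chromosome 19 whose symbol is ZNF followed by a number, chosen by name and position alone from the 20046 protein-coding genes of GENCODE release 44 on GRCh38. They make up 1.20% of these genes. A peak of antibody-barcode eCLIP (ABC) was assigned to a member when it overlapped the gene by at least 1 nt on its strand. Of the 2478204 merged peaks of 54 libraries, 7916 (0.319%) lay on members, with a median length of 40 nt. Of the 240 members, 199 carried a merged peak in at least 1 library and 41 in none. As a gene enters the lists only through a called peak of at least 3 reads, a member without a peak was not shown to be unbound. Of the member peaks, 1070 (13.5%) lay in at least 2 coding genes, and 347 of these in 2 members, so that they cannot be given to 1 gene alone.

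In ABC, RNA fragments crosslinked to an RNA-binding protein (RBP) by ultraviolet light are ligated on the beads to a DNA barcode carried by the antibody, and the barcode of a read names the RBP. In 10plex ABC the same 10 RBPs (DDX3, EIF3G, FAM120A, IGF2BP2, LIN28B, PRPF8, PUM2, RBFOX2, SF3B4 and ZC3H11A) were taken from 1 lysate of K562 cells, a line of human erythroleukaemia, in 3 replicates, and of HEK293 cells, a line of human embryonic kidney, in 2 replicates. Singleplex ABC, with 1 antibody per tube, was made for RBFOX2 in HEK293 cells and for SLBP in K562 cells, with 2 replicates each. All cells were unmodified and untreated apart from crosslinking, and the HEK293 line is named HEK293T in the sample titles and HEK293XT in the study's text. A characteristic of the HEK293 10plex libraries names K562 as their line, against their titles. A list of 6 HEK293 markers summed to 908 and 916 reads per 1000000 reads in merged peaks (RPM) in the HEK293 pools and to 377 to 383 RPM in the K562 pools, higher in HEK293 as the titles have it. The reads in merged peaks ran from 13665 to 2616804 per 10plex library, with the fewest for PUM2.

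Most C2H2 zinc finger proteins of this chromosome bind DNA through an array of fingers, each built from a repeat unit that holds zinc with cysteines and histidines, and many carry a KRAB domain that recruits the corepressor TRIM28 and, through it, the histone methyltransferase SETDB1. The genes lie in clusters that arose by tandem duplication, and they are known for silencing transposable elements. Successive fingers are joined by a short conserved linker, and the whole array is usually coded by the last exon, which also holds the stop codon and the 3′ UTR.

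The gene models of the members showed this build. Their canonical transcripts had a median of 4 exons, a last exon of 3354.5 nt and 1521.5 nt of coding sequence (CDS) in it, against 8 exons, 1358 nt and 156 nt for the other coding genes. A median of 12 fingers per member was found in the translated CDS. The conserved linker was found 1771 times in 230 members, 1760 of these (99.4%) in the last exon, and successive linkers were most often 84 nt apart (68.7% of 1532 spacings). This linker is shown because its codons can hold GGAGA, the motif known for LIN28 proteins, which did so in 1440 linkers (81.3%). The 3 commonest spellings, in GRCh38 sequence on the coding strand with GGAGA in capitals, were found in 322, 200 and 65 linkers across the members.
Linker 1: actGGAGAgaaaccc
Linker 2: actGGAGAgaaacct
Linker 3: actggtgagaaaccc
Of all GGAGA in the last-exon CDS of members, 60.1% (1431 of 2380) lay in a linker.

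Across the 10 RBPs, FAM120A and PRPF8 had the highest shares of their merged peaks on members and SF3B4 the lowest of the K562 means, within the range of EIF3G (0.0870% to 0.248%). FAM120A, an RBP of 3′ UTRs, had 206, 456 and 221 member peaks in the K562 replicates, 0.487% ± 0.0822 (SD, n = 3) of its merged peaks, and 341 and 543 in HEK293, 0.385% ± 0.0844 (SD, n = 2). PRPF8, a core protein of the spliceosome, had 164, 171 and 246 in K562 (0.336% ± 0.0437, SD, n = 3) and 310 and 475 in HEK293 (0.387% ± 0.0665, SD, n = 2). The shares were 0.309% ± 0.0274 for IGF2BP2, 0.279% ± 0.0193 for LIN28B, 0.248% ± 0.0267 for RBFOX2 and 0.161% ± 0.0189 for SF3B4 in K562 (SD, n = 3). The K562 ranges of FAM120A (0.406% to 0.571%) and SF3B4 (0.144% to 0.182%) did not overlap, whereas those of FAM120A and PRPF8 (0.301% to 0.385%) lay close together and those of IGF2BP2 (0.280% to 0.334%) and PRPF8 overlapped. All these shares lay below the 1.20% of genes that are members. The 236 ZNF genes of other chromosomes held 0.357% (EIF3G) to 1.06% (FAM120A) of the K562 peaks as means over replicates, and the other 1236 coding genes of chromosome 19 held 4.87% (FAM120A) to 8.46% (DDX3). Member peaks were shallow, with 5.21 to 6.67 reads per peak in the K562 pools and 6.69 and 6.87 in the HEK293 pools, against 13.2 to 15.5 and 11.1 to 14.3 over all peaks.

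By the mean level over the 30 K562 10plex libraries, ZNF404 came first with 697 RPM and ZNF536 second with 214 RPM, and 99.2% and 45.9% of their reads in these libraries lay within 30 nt of a stretch with at most 1 mismatch to the first 12 bases of the adapter. By reads, ZNF536 had the most (1966), before ZNF146 (1237) and ZNF121 (1156), while ZNF404 had 371 and led by level through the PUM2 libraries, which have the fewest reads. Both stretches match the 12 bases in full, as shown here in GRCh38 sequence on the strand of the gene, with the match in capitals.
ZNF404, minus strand, chr19:43892926-43892955, inside the gene but outside its canonical transcript: agtctaaggAGATCGGAAGAGactaaagag
ZNF536, plus strand, chr19:30548306-30548335, in the CDS of an exon before the last: acttctctgAGATCGGAAGAGcttatcaaa
PUM2, which binds 3′ UTRs of mRNAs, had 18, 124 and 222 reads on ZNF404 in K562 and 921 and 71 in HEK293, and every read of its K562 member peaks lay at such a site. ZNF536 had 90, 353 and 419 RBFOX2 reads in K562, and its peak at this site was the 1 member peak that RBFOX2 enriched in all 3 K562 replicates, with 40, 152 and 188 reads. In all, 59 member peaks in 24 libraries lay at adapter-like sites of 3 genes (ZNF404, ZNF536 and ZNF146) and held 9.13% of the member reads of 10plex ABC. Whether these reads come from the RNA of the genes was not tested, and with the peaks at such sites left out ZNF536 stood at 111 RPM. The next members by level were ZNF146 (93.2 RPM), ZNF121 (64.6), ZNF787 (56.1), ZNF580 (32.6), ZNF562 (22.7), ZNF460 (21.6), ZNF865 (21.0) and ZNF83 (20.3 RPM). Their reads came from different RBPs. ZNF121 was read mainly by FAM120A (127, 217 and 217 RPM in the K562 replicates), IGF2BP2 (154, 250.5 and 172 RPM) and ZC3H11A (131 ± 30.2 RPM, SD, n = 3), while ZNF787 was highest with DDX3 (145, 109 and 198 RPM). ZNF580 overlaps ZNF581 on the same strand, and a peak in both was counted for 1 of them.

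Enrichment was called where P was below 0.001 and the fold was above 8 over the complement control (CC), the reads of the other 9 libraries of its pool, from the authors' test of each peak. Of the member peaks listed with a CC value, 393 of 1857 (21.2%) were enriched in K562 and 512 of 3074 (16.7%) in HEK293. LIN28B, an RBP of mRNA coding regions and of let-7 precursors, enriched 17 of 30, 39 of 50 and 12 of 37 member peaks in the K562 replicates, 58.1% pooled against 37.5% of all its peaks. In HEK293 it enriched 17 of 32 and 21 of 37, 55.1% pooled against 27.3%. The member share was the higher one in each of these 5 libraries. The LIN28B peaks on ZNF genes of other chromosomes also stood above all its peaks, with 47.6% in K562 and 28.7% in HEK293. SF3B4, which binds at the branch point next to the 3′ splice site, enriched 44.6% of its member peaks in K562 (41 of 92, against 30.8% of all) and 46.4% in HEK293 (58 of 125, against 24.1%), although K562 replicate 1 stood below its background, with 3 of 19 peaks or 15.8% against 25.3%. ZC3H11A, an mRNA export factor, enriched 5 of 8, 16 of 23 and 2 of 9 member peaks in K562, 57.5% against 22.4%, but only 15.1% in HEK293 (11 of 73), near its background of 12%. PRPF8 enriched 25.2% in K562 (136 of 540, against 22.5%) and 24.0% in HEK293 (196 of 818, against 17.4%). On ZNF genes of other chromosomes SF3B4 enriched 40.4% in K562 and 27.3% in HEK293, ZC3H11A 44.3% and 18.4%, and PRPF8 21.4% and 14.4%. 

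FAM120A went the other way. It enriched 8.70%, 9.65% and 6.79% of its member peaks in the K562 replicates, 8.32% pooled against 18.6% of all its peaks, and 12.1% and 9.80% in HEK293, 10.7% pooled against 20.3%. Each of these 5 libraries stood below its own background. The low share was not particular to members, as the other coding genes of chromosome 19 had 6.77% in K562 and 4.65% in HEK293. The ZNF genes of other chromosomes had 16.8% and 15.3%. IGF2BP2, which stabilizes mRNAs, enriched 9 of 29 and 20 of 51 member peaks in K562 replicates 1 and 2 but 8 of 139 in replicate 3, 16.9% pooled against 12%, and 11.7% in HEK293 against 5.04%. RBFOX2 stood near its background in both lines, with 10.9% against 11.2% in K562 and 5.62% against 5.76% in HEK293. The translation factors were variable: the helicase DDX3 enriched 10 of 66 member peaks in K562 (15.2% against 21.1%) and 44 of 165 in HEK293 (26.7% against 13%), and EIF3G, a subunit of eIF3, 7 of 17 (41.2% against 31.7%) and 16 of 36 (44.4% against 19.9%). PUM2 had 5 and 2 tested member peaks, of which 2 (against 30.1%) and 0 (against 20.7%) were enriched, and the enriched ones made 1 site, the adapter-like site of ZNF404. The lists of K562 replicate 3 keep peaks in repeats and the other 4 pools do not, and 12 of 37 LIN28B peaks and 8 of 139 IGF2BP2 peaks in replicate 3 were the lowest shares of these RBPs. The part of this difference between the lists was not tested. On ZNF genes of other chromosomes IGF2BP2 enriched 16.3% in K562 and 5.83% in HEK293, DDX3 28.1% and 14.0%, and EIF3G 53.1% and 26.8%.

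**Figure D1:**
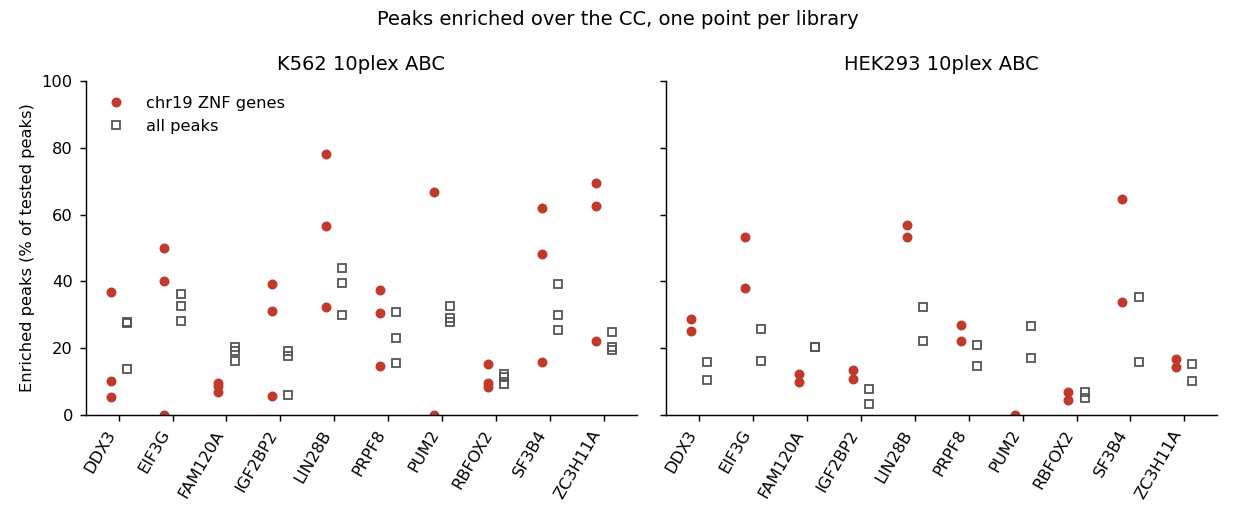
Share of peaks enriched over the CC (% of tested peaks, vertical axis) for each RBP, 1 point per 10plex library, in K562 (left) and HEK293 (right). Filled circles are peaks on chromosome 19 ZNF genes and open squares all peaks of the same library. All 5 LIN28B circles lie above the square of their library and all 5 FAM120A circles below it.

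Counted by gene, a smaller share of members than of all genes was called by each of the 10 RBPs in both lines. A gene was called in K562 with an enriched peak in at least 2 of 3 replicates, and the base was the 153 members and the 11888 coding genes with a merged peak in a K562 10plex library. PRPF8 called 31 members (20.3%, against 41.6% of all these genes), LIN28B 13 (8.5%, against 22.7%), FAM120A 5 (3.27%, against 19.4%), SF3B4 5 (3.27%, against 24.4%), IGF2BP2 4 (2.61%, against 13.2%), RBFOX2 2 (1.31%, against 11.6%), DDX3 1 (0.654%, against 11.4%) and EIF3G 1 (0.654%, against 3.17%). PUM2 (0.908% of all genes) and ZC3H11A (3.58%) called none. In HEK293, with an enriched peak in both replicates and a base of 178 members and 13530 genes, PRPF8 called 30 (16.9%, against 36.6%), FAM120A 9 (5.06%, against 23.8%), SF3B4 6 (3.37%, against 16.9%), LIN28B 5 (2.81%, against 14.7%), RBFOX2 5 (2.81%, against 13.1%), DDX3 4 (2.25%, against 11.1%), IGF2BP2 2 (1.12%, against 5.72%) and ZC3H11A 1 (0.562%, against 2.78%). EIF3G (3.24%) and PUM2 (0.443%) called no member. The other ZNF genes lay between the members and all genes for PRPF8, with 27.6% called in K562 and 31.4% in HEK293. They did so too for FAM120A, with 16% and 14%. This order did not hold for EIF3G in K562 (0.552%), PUM2 in K562 (none) and HEK293 (0.483%) and ZC3H11A in HEK293 (5.31%). FAM120A also called few of the other chromosome 19 genes, 7.26% in K562 and 6.11% in HEK293, nearer to the members than to all genes. A total of 46 members (30.1%, against 65.6% of all genes) were called by at least 1 RBP in K562 and 55 (30.9%, against 65.8%) in HEK293. Of the 10 called by 2 or more RBPs in K562 (6.54%, against 42.6%), ZNF317 was called by 4 (FAM120A, LIN28B, PRPF8 and SF3B4) and ZNF100, ZNF507, ZNF584 and ZNF83 by 3 each. A call needs enriched peaks in 2 replicates, and the part of the shallow member peaks in these lower shares was not tested.

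The regions of the member peaks followed the RBP, with a larger part in the CDS of the last exon than in other genes for each RBP but PUM2 in the pooled K562 replicates. LIN28B had 24.1% ± 2.99 of its K562 member peaks in the last-exon CDS, against 6.10% ± 0.111 of its peaks on other coding genes (SD, n = 3), and 27.6% ± 5.39 against 6.40% ± 0.0609 in HEK293 (SD, n = 2). IGF2BP2 had 25.7% ± 1.01 there in K562 (5.39% ± 0.258 on other genes) and DDX3 23.6% ± 2.28 (4.89% ± 0.352). With the 3′ UTR added, the last exon held 80.1% ± 1.40 of the IGF2BP2 member peaks, 67.5% ± 3.54 of FAM120A and 53.0% ± 7.85 of LIN28B, against 48.3%, 57.5% and 27.8% on other genes (means of 3 K562 replicates). In FAM120A the 3′ UTR alone had 56.4% ± 1.52. In DDX3, 38.8% ± 4.24 of the K562 member peaks lay in the 5′ UTR, against 26.8% ± 0.905 on other genes. EIF3G had only 2, 7 and 10 member peaks, with 28.6% to 100% of them in the 5′ UTR. PRPF8 and SF3B4 peaks lay in introns within 500 nt of a splice site (46.1% ± 3.26 and 31.3% ± 7.62), close to their values on other genes (40.6% ± 3.77 and 36.6% ± 5.94). RBFOX2 had 34.6% ± 6.25 in the rest of the introns. In HEK293 the 3′ UTR held 55.3% ± 3.94 of the FAM120A and 38.2% ± 8.27 of the IGF2BP2 member peaks, and the 5′ UTR 38.8% ± 0.423 of DDX3 (SD, n = 2). PRPF8 there had 18.1% ± 2.36 (SD, n = 2) of its member peaks in the last-exon CDS, where K562 had 5.72% ± 1.71 (SD, n = 3), and the ranges of the libraries (16.5% to 19.8% and 4.27% to 7.60%) did not overlap. The PRPF8 share on other coding genes is not given beside it, so this difference is not shown to be particular to members.

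**Figure D2:**
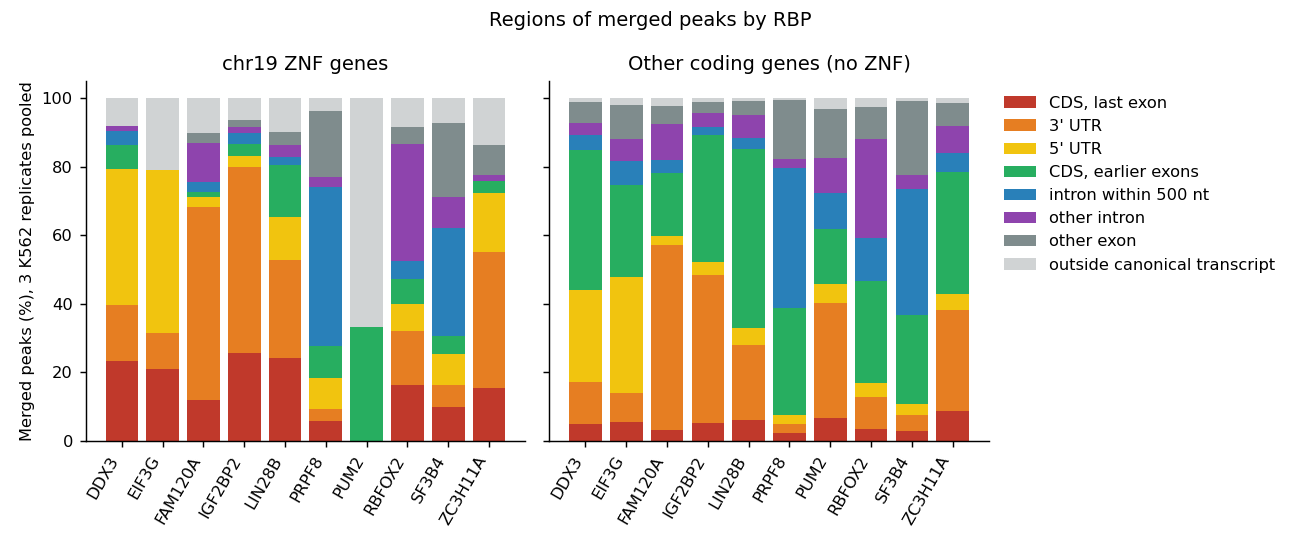
Region of the merged peaks (% of peaks, vertical axis) for each RBP in K562 10plex ABC, with the 3 replicates pooled, on chromosome 19 ZNF genes (left) and on coding genes that are not ZNF genes (right). Each bar adds to 100%, and the part of the last-exon CDS, at the foot of the bars, is larger on the left for 9 RBPs, the exception being PUM2, whose 9 member peaks all lay at adapter-like sites.

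Of the 10 sites that LIN28B enriched in at least 2 K562 replicates, 5 held GGAGA and 3 a finger linker, within 20 nt. GGAGA was held by 2 of 6 FAM120A sites, 1 of 2 IGF2BP2, 1 of 1 EIF3G, 1 of 4 SF3B4, 0 of 2 RBFOX2 and 6 of 25 PRPF8 sites, and a linker by 1 FAM120A and 1 IGF2BP2 site. Of the 5 LIN28B sites enriched in both HEK293 replicates, 2 held GGAGA and 1 a linker. In 4 genes LIN28B enriched the same site in all 3 K562 replicates. In ZNF317 the site in the last-exon CDS had 18, 11 and 6 LIN28B reads against 6, 4 and 4 CC reads, with a log2 fold over the CC of 5.61, 5.58 and 4.74, and in HEK293 it had 15 and 23 reads against 7 and 9, with a log2 fold of 5.56 and 6.16. In ZNF320 it had 3, 7 and 4 reads against 3, 1 and 1 (log2 fold 4.03, 6.92 and 6.15), and no HEK293 site was enriched in both replicates. ZNF584 had 3, 6 and 4 reads against 3, 8 and 3 at a last-exon site without GGAGA. The fourth site lay in the 3′ UTR of ZNF146 and had 7, 15 and 11 reads against 14, 23 and 9 in K562 and 6 and 10 against 2 and 17 in HEK293, again without GGAGA. The last-exon sites with GGAGA in ZNF460 (5 and 5 reads in replicates 1 and 2) and ZNF526 (5 and 5 reads in replicates 2 and 3), were named after their values were seen. All of these rest on few reads, and ZNF317 had the most of the last-exon sites. The 30 bases around the GGAGA of these sites are shown to set them beside the linker, in GRCh38 sequence on the strand of the gene with GGAGA in capitals.
ZNF317, plus strand, chr19:9160707-9160736: gaatcacacgggGGAGAagccctacgcgtg
ZNF320, minus strand, chr19:52880800-52880829: aggattcatacaGGAGAgaaacctcacaag
ZNF460, plus strand, chr19:57291189-57291218: catccatactggGGAGAagccctataaatg
ZNF526, plus strand, chr19:42224484-42224513: ggcagagatgatGGAGAtgtcaacagaagt
The sites of ZNF317, ZNF320 and ZNF460 were centred 2, 4 and 2 nt from a linker centre, while that of ZNF526 lay 1392 nt from its nearest linker.

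Among merged peaks of the last-exon CDS, GGAGA was more common in those of LIN28B than in those of the other RBPs. With 20 nt added on both sides, 5 of 8, 8 of 14 and 7 of 10 LIN28B peaks held it in the K562 replicates, 63.2% ± 6.46 (SD, n = 3), and 6 of 11 and 5 of 10 in HEK293, 52.3% ± 3.21 (SD, n = 2). Windows of the same length at every position of the last-exon CDS of members held it in 46.6% ± 3.93 and 47.4% ± 0.535 (SD, n = 3 and 2). In the peaks of the other 9 RBPs it was 32.2% (97 of 301) in K562 and 33.9% (207 of 611) in HEK293. The share of their windows was higher, at 45.4% and 48.4%. All windows were taken from all 240 members, with or without a peak. In K562, ZNF787 and ZNF865 gave 12.6% and 8.11% of the last-exon CDS peaks of the 10 RBPs. The part of such differences between genes was not tested. A linker centre lay within 42 nt of the peak centre in 15 of 32 LIN28B peaks in K562 and 5 of 21 in HEK293. For the other 9 RBPs it was 67 of 301 and 141 of 611. Among such peaks, GGAGA was held by 14 of 15 for LIN28B, 24 of 28 for IGF2BP2 and 16 of 24 for FAM120A in K562. In HEK293 it was 5 of 5, 21 of 29 and 25 of 29, with 27 of 37 for PRPF8 and 20 of 32 for RBFOX2. The part of position in the GGAGA shares was not tested. On last-exon CDS of other coding genes, LIN28B peaks held GGAGA in 21.7% ± 1.46 in K562 and 23.7% ± 0.929 in HEK293. Over all last-exon CDS peaks of members, the highest shares of the other RBPs were 45.1% for IGF2BP2 in K562 (32 of 71) and 41.4% for PRPF8 in HEK293 (60 of 145). With enriched peaks alone, 4 of 7, 7 of 12 and 3 of 4 LIN28B peaks in K562 held it. The share among enriched IGF2BP2 peaks in K562, given below, was no lower, so LIN28B did not stand out by enriched peaks. The search used the strand of the gene. The 32 LIN28B peaks of K562 came from 15 genes, so that several are the same site in other replicates, and no p is given.

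**Figure D3:**
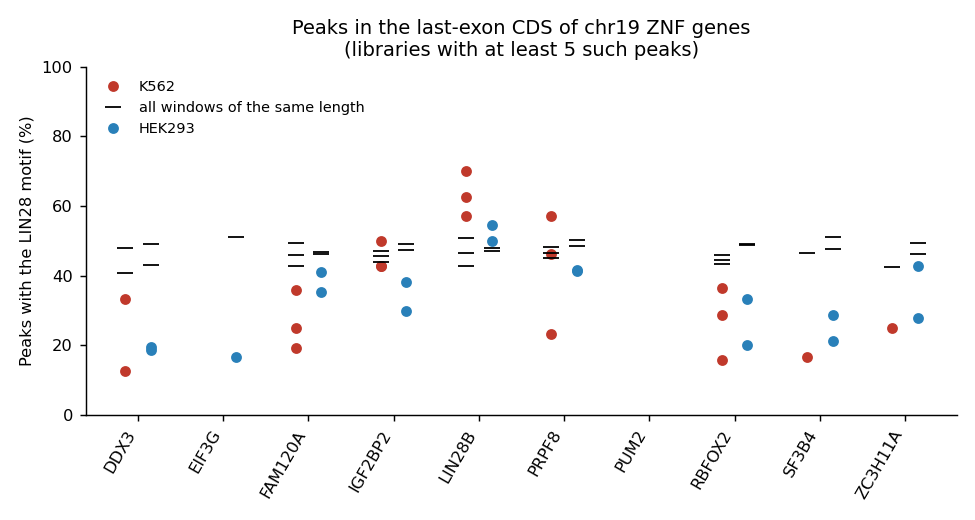
Share of peaks in the last-exon CDS of chromosome 19 ZNF genes that hold the LIN28 motif within the peak or 20 nt of it (%, vertical axis), by RBP, 1 point per 10plex library with at least 5 such peaks. Short black lines give the share over all windows of the same length in the last-exon CDS of all members, with or without a peak. The K562 LIN28B points, at 57.1% to 70.0%, lie above their lines, and most points of the other RBPs lie below.

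The position in the finger repeat also differed between LIN28B and the other RBPs. Among peaks with a linker centre within 42 nt, one side of the 84 nt repeat, 11 of 15 LIN28B peaks in K562 (73.3%) and 3 of 5 in HEK293 (60%) were centred within 10 nt of it, against 24.9% of all positions of the arrays. For the other 9 RBPs it was 13 of 67 (19.4%) in K562 and 30 of 141 (21.3%) in HEK293. Of the other RBPs with at least 20 such peaks in a line, FAM120A had 4 of 24 in K562 and 10 of 29 in HEK293, IGF2BP2 5 of 28 and 4 of 29, and PRPF8 7 of 37 and RBFOX2 5 of 32 in HEK293. Among those with as few peaks as LIN28B, RBFOX2 had 4 of 9 in K562 (44.4%), ZC3H11A 2 of 5 (40%) and DDX3 2 of 7 in HEK293, and PRPF8 0 of 5 in K562. Most of their peaks lay before the linker on the mRNA. The 11 LIN28B peaks near a linker in K562 came from ZNF317, ZNF320, ZNF460, ZNF257 and ZNF146, and ZNF317 alone gave 4 of them. 

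**Figure D4:**
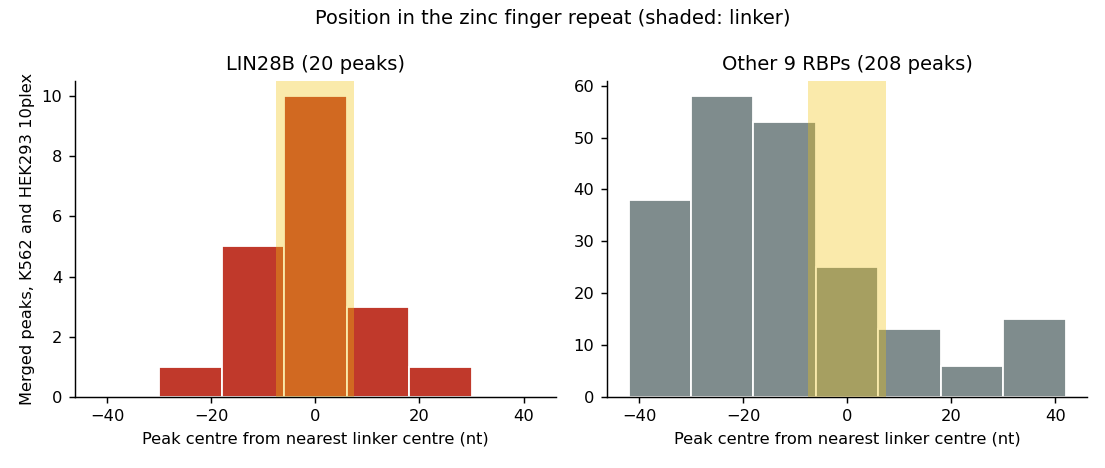
Distance of the peak centre from the nearest linker centre (nt, horizontal axis, negative before the linker) for merged peaks in the finger arrays of chromosome 19 ZNF genes, K562 and HEK293 10plex ABC together. The vertical axis counts peaks, the shaded band is the linker of 15 nt, and the 20 LIN28B peaks (left) gather at the linker while most of the 208 peaks of the other 9 RBPs (right) lie before it.

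PRPF8 and SF3B4 marked opposite ends of the member introns. Of the enriched PRPF8 peaks in introns, 79 of 81 in K562 and 97 of 99 in HEK293 were centred within 100 nt of the 5′ splice site, with a median of 16 and 12 nt. Of the enriched SF3B4 peaks, 19 of 21 in K562 and 22 of 32 in HEK293 were centred within 100 nt of the 3′ splice site, at a median of 26 and 35 nt, and none near the 5′ splice site. The last intron, which ends at the exon of the finger array, held 17 of the 81 PRPF8 peaks and 6 of the 21 SF3B4 peaks in K562. In 10 sites PRPF8 was enriched in all 3 K562 replicates. ZNF431 had 16, 9 and 17 PRPF8 reads against 3, 5 and 2 CC reads, with a log2 fold of 4.82, 3.76 and 5.16. ZNF93, known to repress LINE-1 elements, had 6, 6 and 11 reads against 3, 3 and 1, and ZNF441 had 7, 11 and 21 against 3, 4 and 3 at an exon outside the canonical transcript. The splice sites of ZNF431, ZNF93 and ZNF317 show where these peaks lie, with 10 exon bases in capitals before the first bases of the intron.
ZNF431, plus strand, chr19:21143634-21143663: TTTTGAAAAGgtaacctcttgagacattaa
ZNF93, plus strand, chr19:19901082-19901111: CCTAGAAATGgtgagagtgccggtccgaca
ZNF317, plus strand, chr19:9140583-9140612: TCCCAGTCGTgtaagccctgctttccttaa
The peaks were centred 22, 21 and 6 nt from the splice site. For SF3B4 no site was enriched in all 3 K562 replicates, and a site in ZNF100 was enriched in 2 of them, with 13 and 4 reads against 3 and 2 in replicates 2 and 3.

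The sites that FAM120A enriched in both HEK293 replicates lay in the 3′ UTR, except 1 of 12 in the last-exon CDS. Of its 6 sites in at least 2 K562 replicates, 1 was in the 3′ UTR of the canonical transcript and 3 in ZNF254 outside it. In K562, FAM120A enriched 2 sites of ZNF254 in all 3 replicates, with 8, 25 and 16 reads against 1, 5 and 3 at the first. In all 3 it enriched a site that lies within both ZNF580 (in an exon of another transcript) and ZNF581 on the same strand. There FAM120A had 35, 34 and 13 reads against 7, 7 and 4, and the genes cannot be told apart. It also enriched a 3′ UTR site of ZNF317, with 9 and 21 reads against 1 and 3 in replicates 1 and 2, so that ZNF317 held LIN28B in the finger array, FAM120A in the 3′ UTR, PRPF8 at the 5′ splice site of an intron and SF3B4 in an intron within 500 nt of a splice site. In ZNF91, known to repress SVA elements, a last-exon CDS site had 8 and 18 FAM120A reads against 1 and 2. In HEK293, 4 FAM120A sites lay in the 3′ UTR of ZNF507, named after their values were seen, with 21 and 52 reads against 4 and 9 at the one most read. IGF2BP2 enriched ZNF83 in all 3 K562 replicates, though at no single site in all of them, and a 3′ UTR site of ZNF865 with 5 and 11 reads against 2 and 2 in replicates 1 and 2, where replicate 3 had 12 against 10 with a log2 fold of 2.55, below the limit of 8-fold. ZNF28 was enriched in 2 replicates at different sites.

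At the 5′ end, DDX3 enriched the 5′ UTR of ZNF584 at sites of 4 reads against 7 in K562 replicate 2 and 7 against 11 in replicate 3, and at 1 site in both HEK293 replicates with 9 and 6 reads against 14 and 9. EIF3G enriched the 5′ UTR of ZNF146 in K562 replicates 2 and 3 with 6 and 7 reads against 38 and 35, while replicate 1, with 4 against 27 and a log2 fold of 2.97, was just under the limit. The other genes named by the rule for these RBPs rest on 1 K562 replicate each: ZNF524 and ZNF175 for DDX3 had 3 reads each, and ZNF865 and ZNF587 for EIF3G had 3 and 5. ZC3H11A was also enriched in 1 replicate each on ZNF558, ZNF566 and ZNF587, with 3, 4 and 3 reads. PUM2 peaks on members held its motif TGTANATA in no K562 library and in 1 peak of each HEK293 library.

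RBFOX2, which binds GCATG, had the motif in its intron peaks on members in every library. In K562, 10 of 30, 26 of 64 and 16 of 30 intron peaks held GCATG within 20 nt (33.3%, 40.6% and 53.3%), and in HEK293 89 of 269 and 101 of 316 (33.1% and 32.0%), on the strand of the gene. In singleplex ABC it was 224 of 627 and 118 of 302 (35.7% and 39.1%). Windows of the same length over the introns of members with an RBFOX2 peak in any library held it in 8.24% to 9.61%. Each of these 7 libraries was over 3 times its windows. For PRPF8 intron peaks it was 1.27% to 5.06% in K562 and 6.31% and 8.5% in HEK293. Apart from the adapter-like site, RBFOX2 called 1 member in K562, ZNF544, with 8 and 6 reads against 1 and 4 in replicates 2 and 3 at an intron site, and 4 against 4 in replicate 1. Of the 9 sites enriched in both HEK293 replicates, 7 held GCATG. They are named after their values were seen, and the pair in ZNF552 lay in the last-exon CDS, with 16 and 17 reads against 2 and 6 at one and 12 and 20 against 1 and 3 at the other. The deepest, in an intron of ZNF428, had 68 and 53 reads against 13 and 16 and held no GCATG. The sequences of 4 sites are shown with the motif in capitals.
ZNF544, K562, plus strand, chr19:58258639-58258668: agggtgctgggtGCATGcaaggatcttgcc
ZNF552, HEK293, minus strand, chr19:57808597-57808626: gctgtggaggatGCATGaaacattttagca
ZNF552, HEK293, minus strand, chr19:57808761-57808790: gaggtgtaagttGCATGtgtcaggggagtc
ZNF540, HEK293, plus strand, chr19:37601256-37601285: cagatcatctgaGCATGaactatcaaaaga

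Singleplex and 10plex RBFOX2 ABC of HEK293 were set side by side on the members. Singleplex ABC had 1109 and 568 member peaks in 133 and 105 genes, and 10plex ABC 521 and 696 in 110 and 124 genes, with 87 to 109 genes shared in the 4 pairs of libraries. By peak, 20% to 25.2% of the singleplex member peaks overlapped a 10plex peak, and 20.4% to 42.2% of the 10plex peaks a singleplex one. The distal part of the introns held 46.2% and 44.5% of the singleplex and 40.5% and 35.8% of the 10plex member peaks. With 2 libraries against 2 no test was made. The overlap over all genes and all peaks of these libraries was not taken, so the values for members have no background beside them.

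Members chosen for what is known of them were thinly covered. ZNF274, which recruits SETDB1 to other zinc finger genes, had 62.6, 54.8 and 77.4 RPM with PRPF8 in K562 and 20.5 and 22.3 in HEK293, without overlap, and PRPF8 enriched an exon outside its canonical transcript in all 3 K562 replicates (10, 6 and 22 reads against 3, 5 and 11). ZNF93 had 11.7, 10.3 and 18.7 RPM with PRPF8 in K562 and no merged peak in HEK293. ZNF420 had 9.78, 13.7 and 10.7 RPM with PRPF8 in K562 and 13 and 10.9 in HEK293, which overlap. ZNF91 had 20.1, 33.3 and 6.03 RPM with FAM120A in K562 and 4.82 and 8.17 in HEK293, which also overlap. ZNF331 had 1.07 RPM in 1 K562 pool, no merged peak in the other 2, and 3.28 and 1.25 RPM in HEK293.

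Between the cell lines, members split in both directions, while more of all genes were higher than lower in HEK293. The reads of the 10 libraries of a pool were summed and tested per gene with limma on log2(RPM + 1), over 10051 genes with a mean of at least 5 RPM. Of these, 4043 (40.2%) were higher and 1422 (14.1%) lower in HEK293 at an adjusted p below 0.05. Of the 62 members tested, 9 were higher and 13 lower, with 27 at an unadjusted p below 0.05. Without the filter on low levels the balance turned, with 55 of 198 members higher and 24 lower (37.7% and 11% of all 14272 genes). The median log2 difference, HEK293 minus K562, was 0.63 over all genes and 0.05 over the members tested. Relative to that shift the split is less even. With quantile normalization, which brought the median of all genes to -0.05, 5 members were higher and 41 lower (27.3% and 29.4% of all genes), and their median was -1.54. Reads in peaks hold both the amount of an RNA and how much of it was bound, which cannot be told apart here. The HEK293 pools were also deeper, with 5794718 and 9578400 reads in merged peaks against 2791901 to 4786783 in K562. Levels count only called peaks of at least 3 reads, and the part of depth in these differences, and in genes without a K562 peak, was not tested.

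The 5 members with the smallest adjusted p on each side are given with their pools. As they were chosen by p on these pools, the lack of overlap between the lines is no separate support. ZNF83 had 25.8, 27.8 and 22.2 RPM in the K562 pools and 1.04 and 0.313 in HEK293, a log2 difference of -4.0 ± 0.26 (SE; limma adjusted p = 0.000206). ZNF320, with the LIN28B site above, had 13.3, 15.5 and 17.7 RPM against 0.863 and 1.15 (-3.03 ± 0.21, limma adjusted p = 0.000261). ZNF726 had 33.0, 31.3 and 28.0 RPM against 3.45 and 2.61 (limma adjusted p = 0.000230), and ZNF701 10.4, 15.0 and 13.2 against 0.518 in 1 HEK293 pool and no merged peak in the other (limma adjusted p = 0.000447). ZNF544 had 15.0, 19 and 19.3 RPM in K562 and no merged peak in HEK293 (limma adjusted p = 5.83e-05), and no fold is given. In the other direction, ZNF875 had 15.9 and 18.5 RPM and ZNF358 14.2 and 14.2 RPM in HEK293, and both had no merged peak in K562 (limma adjusted p = 4.19e-05 and 4.29e-05). ZNF738 had 22.4 and 25.4 RPM in HEK293 against 1.07, 1.04 and 1.29 in K562 (3.54 ± 0.18, limma adjusted p = 8.01e-05). ZNF507 had 21.5, 31.8 and 19.7 RPM in K562 against 63.2 and 66.7 in HEK293 (1.41 ± 0.26, limma adjusted p = 0.00862), and ZNF428 had 15.0, 29.2 and 25.1 against 69.9 and 58.9 (1.48 ± 0.33, limma adjusted p = 0.0149). The rest of the higher members were ZNF414, ZNF580 (which overlaps ZNF581 on its strand), ZNF557 and ZNF430. The rest of the lower ones were ZNF626, ZNF160, ZNF558, ZNF562, ZNF700, ZNF493, ZNF175 and ZNF431. Leaving out HEK293 replicate 1 left 2 higher and 7 lower, and leaving out HEK293 replicate 2 left 2 and 11.

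**Figure D5:**
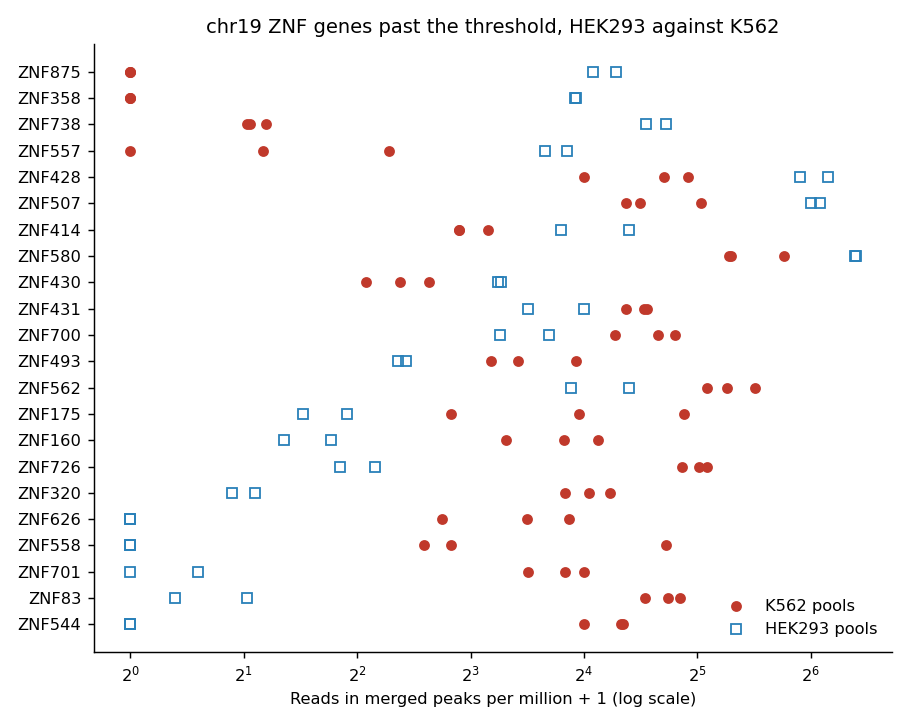
Level of the 22 chromosome 19 ZNF genes past the threshold in HEK293 against K562, in RPM plus 1 (horizontal axis, log2 scale), with 1 filled circle per K562 pool and 1 open square per HEK293 pool. Genes are ordered by the difference. They were chosen by p on these same pools, so the gap between the 3 circles and the 2 squares of a gene is no separate support. Points at 1 are pools without a merged peak in the gene.

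The lines were also compared for 1 RBP at a time, with a fit over all genes for each. The median log2 difference of all genes was 2.23 for DDX3, 2.73 for EIF3G, 2.37 for ZC3H11A and 3.17 for PUM2. For the remaining RBPs it ran from 0.43 (PRPF8) to 1.40 (RBFOX2). The counts of members below are not corrected for this shift toward HEK293. PRPF8 had 6 higher (16.9% of all 9880 genes) and 15 lower (11.9%) of 87 members, FAM120A 8 (29.4%) and 11 (10.7%) of 53, and DDX3 9 (25.5%) and 0 (3.37%) of 27. RBFOX2 had 6 (24%) and 3 (7.69%) of 51, IGF2BP2 4 (16.3%) and 4 (5.7%) of 49, LIN28B 2 (13.6%) and 4 (4.57%) of 34, and SF3B4 7 (11%) and 1 (3.95%) of 33. EIF3G had 2 (23.3%) and 0 (1.2%) of 16, ZC3H11A 2 (17.7%) and 0 (1.5%) of 35, and PUM2 1 (8.76%) and 0 (1.19%) of 4. ZNF83 was lower with FAM120A, IGF2BP2, LIN28B and PRPF8, and ZNF320 with the same 4. ZNF358 was higher with DDX3, FAM120A, IGF2BP2, PRPF8 and SF3B4, and ZNF738 with DDX3, FAM120A, PRPF8, SF3B4 and ZC3H11A.

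The corepressors that KRAB zinc finger proteins use were covered in full. All 17 genes of the list (TRIM28, SETDB1, ATF7IP, the HP1 genes CBX1, CBX3 and CBX5, HDAC1, HDAC2, CHD3, CHD4, the DNA methyltransferases DNMT1, DNMT3A and DNMT3B, MPHOSPH8, TASOR, PPHLN1 and MORC2) had merged peaks in both lines. In K562 PRPF8 called 13 of them (against 41.6% of all genes), LIN28B 10 (22.7%), SF3B4 10 (24.4%), FAM120A 6 (19.4%), DDX3 4 (11.4%), EIF3G (3.17%), RBFOX2 (11.6%) and ZC3H11A (3.58%) 2 each, IGF2BP2 1 (13.2%) and PUM2 0 (0.908%). In HEK293 PRPF8 called 12 (36.6%), FAM120A 7 (23.8%), LIN28B 7 (14.7%), SF3B4 4 (16.9%), DDX3 (11.1%) and EIF3G (3.24%) 2 each, IGF2BP2 1 (5.72%) and the other 3 none. TRIM28 had 218, 207 and 324 RPM in the K562 pools and 284 and 270 in HEK293, which overlap (limma adjusted p = 0.596), and its level was highest with EIF3G, at 1644 ± 663 RPM in K562 (SD, n = 3). SETDB1 was higher, from 26.1, 25.9 and 27.4 RPM in K562 to 46.1 and 51.9 in HEK293, by 0.86 ± 0.18 on the log2 scale (limma adjusted p = 0.0121), where the median of all genes was 0.63. Of the list, 6 of 17 genes (against 40.2% of all genes) were higher in HEK293 (SETDB1, TASOR, MORC2, DNMT3A, CHD3 and HDAC2) and 2 lower (DNMT3B and CBX3, against 14.1%).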

How the data were processed

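The authors trimmed the reads with cutadapt 2.8, aligned them to GRCh38 with STAR 2.7.6 after setting repeat reads aside, removed PCR duplicates by molecular identifier and called peaks per library with CLIPper 2.1.2, with a p-value per peak and without pooling replicates. The deposited lists of merged peaks give −log10 P (at most 400) and the log2 fold over an external background. Those of the complement control give −log10 P and log2 fold in K562 replicate 3, and the p-value of a chi-squared test with its statistic, free of repeats, in the other pools. Each of these sets was deposited as its own list, so a library can have more peaks in one than in the other. The deposited display score was not used. A merged peak joins overlapping calls and has at least 3 reads. Reads per peak were recovered from the log2 fold or the peak name and were summed per gene as RPM, reads per 1000000 reads in merged peaks. CC reads and fold outside K562 replicate 3 were solved from the chi-squared statistic. HEK293 peaks without an identical merged peak took the reads of an overlapping one. Whole CC reads gave the statistic for 55.0% and 60.2% of peaks in HEK293 RBFOX2 and FAM120A replicate 2. In K562 replicate 3 the same solution returned the known CC reads for 91.3% to 97.9% of peaks. That check used the known reads and the known share of each library in its pool. It does not cover the share fitted in the other pools or the reads taken from overlapping HEK293 peaks.

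Peaks were assigned to GENCODE 44 genes (the authors used release 35) with pysam 0.24.0 and bedtools 2.31.1 in Python 3.11.15. HEK293 and K562 pools were compared with limma 3.58.1 (R 4.3.3) on log2(RPM + 1) for genes with a mean of at least 5 RPM, which understates the change of low genes, with Benjamini-Hochberg adjustment at 0.05. On simulated data for this comparison (8761 genes) all genes changed by 2 on the log2 scale and 29.8% to 34.0% of those changed by 1 were called. Nothing in the labels says that replicates are separate cultures, so p-values measure the spread between these libraries. Named genes were the 10 members with the highest mean level in K562, up to 3 per RBP enriched in the most K562 replicates, up to 5 per direction between the lines, 5 members chosen from background knowledge, and the corepressors. Members and lists were chosen with earlier results of these data known. Alternatives covered the limits of enrichment, the control, the weight of peaks, the last exon, the motif window, the filter, pseudocount, normalization, pairing and each replicate. The list of K562 markers is not reported here.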

Additional observations from a re-analysis of the deposited data

Results flagged for a closer look

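The SLBP singleplex libraries of K562 enter no comparison. SLBP binds the stem-loop of histone mRNAs. They still held 7 merged peaks on chromosome 19 ZNF genes in replicate 1 and 4 in replicate 2, with 21 and 12 reads, above the limit of 3 that a count of 0 allows. They were 0.157% and 0.229% of the merged peaks of these libraries.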

How the results depend on the processing

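All values here are K562 means over replicates unless the lines are compared. The causes of these changes were not tested. With P below 1e-05 and a fold above 16, the enriched member peaks per library were 2 for DDX3, 0.667 for EIF3G, 2.67 for FAM120A, 3 for IGF2BP2, 11.3 for LIN28B, 14.7 for PRPF8, 3.67 for RBFOX2, 4.67 for SF3B4 and 4.33 for ZC3H11A. With any fold above 1, DDX3 had 7. Over the external background they were 13.7 for DDX3, 67.7 for FAM120A, 12.3 for LIN28B, 82 for PRPF8, 3 for PUM2 and 18.3 for RBFOX2. PUM2 had 0 without the adapter-like sites, and 0 without the repeat peaks of replicate 3, and RBFOX2 called 1 gene without the adapter-like sites. Leaving out 1 replicate gave 1.5 to 4.5 enriched peaks for DDX3, 1 to 3.5 for EIF3G, 11.5 to 18.5 for FAM120A, 8.5 to 14.5 for IGF2BP2, 14.5 to 28 for LIN28B, 39.5 to 50 for PRPF8, 0 to 1 for PUM2, 7 to 9.5 for RBFOX2, 8 to 19 for SF3B4 and 3.5 to 10.5 for ZC3H11A. The genes called in both remaining replicates, a rule chosen after seeing the data, were 0 to 1 for DDX3 and EIF3G, 3 to 4 for FAM120A, 1 to 3 for IGF2BP2, 4 to 9 for LIN28B, 15 to 20 for PRPF8, 1 to 2 for RBFOX2 and 0 to 4 for SF3B4.

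Weighted by reads, the member share was 0.0891% for DDX3, 0.0695% for EIF3G, 0.164% for FAM120A, 0.129% for IGF2BP2, 0.113% for LIN28B, 0.172% for PRPF8, 0.738% for PUM2, 0.140% for RBFOX2, 0.0442% for SF3B4 and 0.0810% for ZC3H11A. Without adapter-like sites, also chosen after seeing the data, it was 0.164% for FAM120A, 0.167% for PRPF8, 0 for PUM2 and 0.0837% for RBFOX2. Over CLIPper peaks it was 0.347% for IGF2BP2, 0.391% for PRPF8, 0.317% for PUM2 and 0.289% for RBFOX2. The last exon held 14.3% of the enriched DDX3 peaks, 62.0% of FAM120A, 91.3% of IGF2BP2, 1.17% of PRPF8 and 3.70% of RBFOX2. As the last exon of any transcript it held 81.7% of the IGF2BP2 peaks, 63.6% of LIN28B, 25.5% of PRPF8, 27.8% of PUM2 and 40.7% of RBFOX2, and with exons of at least 1000 nt 33.9% of DDX3 and 75.9% of IGF2BP2. GGAGA lay in 0 of the enriched DDX3 and 0 of the RBFOX2 last-exon CDS peaks, 69.3% of IGF2BP2 and 100% of PRPF8 (1 peak), and within the peak alone in 7.40% for FAM120A, 21.8% for IGF2BP2, 45.8% for LIN28B, 20.1% for PRPF8 and 14.6% for RBFOX2. Leaving out 1 replicate gave a GGAGA share of 34.6% to 51.6% for PRPF8 and 59.8% to 66.2% for LIN28B.

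Between the lines, 55 members were higher and 24 lower in HEK293 of 198 without the filter, 5 and 41 with quantile normalization, and from 2 to 13 higher and 7 to 16 lower without 1 replicate, where without K562 replicate 2 more were higher (13) than lower (11). The members' median log2 difference, 0.05 as reported, was -0.06 with the mean of the libraries, -0.08 without K562 replicate 1, -0.27 without either HEK293 replicate, -1.54 with quantile normalization and 0.38 without the filter, so its direction is not settled. With a pseudocount of 5, EIF3G had 1 member higher and RBFOX2 11.

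With the replicate number as a block, over replicates 1 and 2 of both lines, 11 members were higher and 13 lower, against 9 and 13 in the same pools without it, so the block moved no count by over 1.5 times. The titles give the K562 pools other original numbers, and the second HEK293 pool is titled rep1 and was taken as replicate 2. The lines thus share only an assigned number, which need not pair them. The correlation of replicate 1 minus replicate 2 between the lines was -0.149 over 10051 genes, where genes are not independent. With the numbers crossed, chosen after seeing the data, 15 were higher and 16 lower.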

Other observations

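By position on the chromosome, 11 of the members tested between the lines lay between 50 and 55 Mb, of which 5 were lower in HEK293 and 0 higher, with a median log2 difference of -1.34 (against 13 lower and 9 higher of all 62 members tested, and 14.1% lower and 40.2% higher of all genes). Between 20 and 25 Mb, 12 were tested, with 2 higher and 4 lower, between 55 and 60 Mb 13, with 1 and 1, and between 5 and 10 Mb 10, with 3 and 2. The other 5 windows with a member tested had 1 to 5 each. These windows were looked at after the values were seen.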
